A study of Mus musculus with 16 samples.

Results

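The 4 jejunal organoid libraries in which deletion of Hnf4a was induced were compared with the 4 control libraries of the same day, day 4, across all genes of the deposited day 4 table. These are 8 of the 16 libraries of the series, and the table lists 20658 genes, of which 16040 had enough counts to be tested. Epithelial organoids were grown from the jejunum of C57BL/6 mice of the genotype Villin-CreERT2; Hnf4aflox/flox. The control libraries carry the same alleles, so both groups have the recombinase and the floxed gene. In the controls, however, the drug that switches the recombinase on was not given. Recombinase activity without the drug was not measured. No library combines the drug or an active recombinase with an unfloxed Hnf4a. Effects of the drug, of recombinase activity and of the loss of Hnf4a therefore cannot be told apart. The recombinase is driven by the Villin promoter, which is active in intestinal epithelial cells, and is switched on by hydroxytamoxifen (4OHT). Cultures labelled 4OHT received 0.5 µM of it for 24 h and were then split, and controls received the vehicle DMSO. RNA was collected on day 4 after the last passage. The labels give no age and do not say whether replicates came from separate animals, organoid lines or wells, so every p-value rests on the scatter among libraries whose independence is not known and may reflect technical variation alone.

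HNF4A is a nuclear receptor that binds DNA as a homodimer and keeps many liver and gut genes active. In the intestine it acts beside its paralog HNF4G, which recognises nearly the same DNA sequence, and both are best known for the genes of absorptive enterocytes: brush border enzymes, lipid handling and nutrient metabolism. Paneth cells, the granular cells of the crypt base, secrete antimicrobial peptides and are a source of the ligand WNT3 for neighbouring stem cells. The series title names Wnt3 and Paneth cell fate as the question behind the comparison.

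Library totals of day 4 ranged from 64445056 to 91566204 counts. Levels are given as CPM, counts scaled to a common library size and then by TMM, an adjustment that makes the bulk of genes comparable between libraries. On the first principal component (66.3% of the variance) the DMSO libraries lay between -17.1 and -9.6 and the 4OHT libraries between 5.2 and 23.6. The highest of these was 4OHT replicate 4, which stood apart from its group. The second component (21.7%) separated libraries numbered 1 and 2 from those numbered 3 and 4 in both treatments, and same-numbered libraries deviated together. The labels give no reason for this split. Each count below that a fit with the replicate number as a block changed by over 1.5 times is therefore given with the blocked value. The epithelial markers Epcam, Cdh1, Krt8, Krt18, Vil1, Cdx2, Cdh17, Krt20, Fabp1 and Lgals4 summed to 10500 to 11000 CPM in DMSO and 12800 to 14700 CPM in 4OHT. Markers of cell types outside the epithelium were low beside these sums. The stromal list summed to 2.13 to 3.61 CPM in DMSO and 2.25 to 3.26 CPM in 4OHT. For the immune list the sums were 3.20 to 3.65 and 2.82 to 3.91 CPM, and for the endothelial list 14.3 to 17.7 and 15.2 to 19.0 CPM. Of the neural and glial list, the sum was 2.78 to 3.18 CPM in DMSO and 1.78 to 2.63 CPM in 4OHT. These are bulk libraries, in which fewer cells of a type and less RNA per cell cannot be told apart.

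The targeted gene was lower in every 4OHT library. Hnf4a (ENSMUSG00000017950, GRCm38 chromosome 2, 163506808 to 163572910, plus strand) measured 976, 999.5, 982 and 971 CPM in DMSO replicates 1 to 4 and 478, 498, 471 and 462 CPM in 4OHT replicates 1 to 4. The groups did not overlap, and both were tight. The log2 fold change was -1.04 ± 0.05 (SE; edgeR adjusted p = 1.14e-06), or 48.6% of the level in controls. Reads from exons outside the floxed stretch also enter the total of the gene, so it does not measure the deleted fraction. The paralog Hnf4g (ENSMUSG00000017688, chromosome 3) moved the other way, from 180, 212, 184 and 186 CPM to 261, 282, 271 and 275 CPM (log2 0.51 ± 0.06, edgeR adjusted p = 0.000235). The ligand gene Wnt3 (ENSMUSG00000000125, chromosome 11) measured 16.2, 16.6, 17.5 and 17.3 CPM in DMSO and 8.35, 8.73, 8.92 and 8.50 CPM in 4OHT, again with no overlap (log2 -0.97 ± 0.06, edgeR adjusted p = 6.40e-06).

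**Figure D1:**
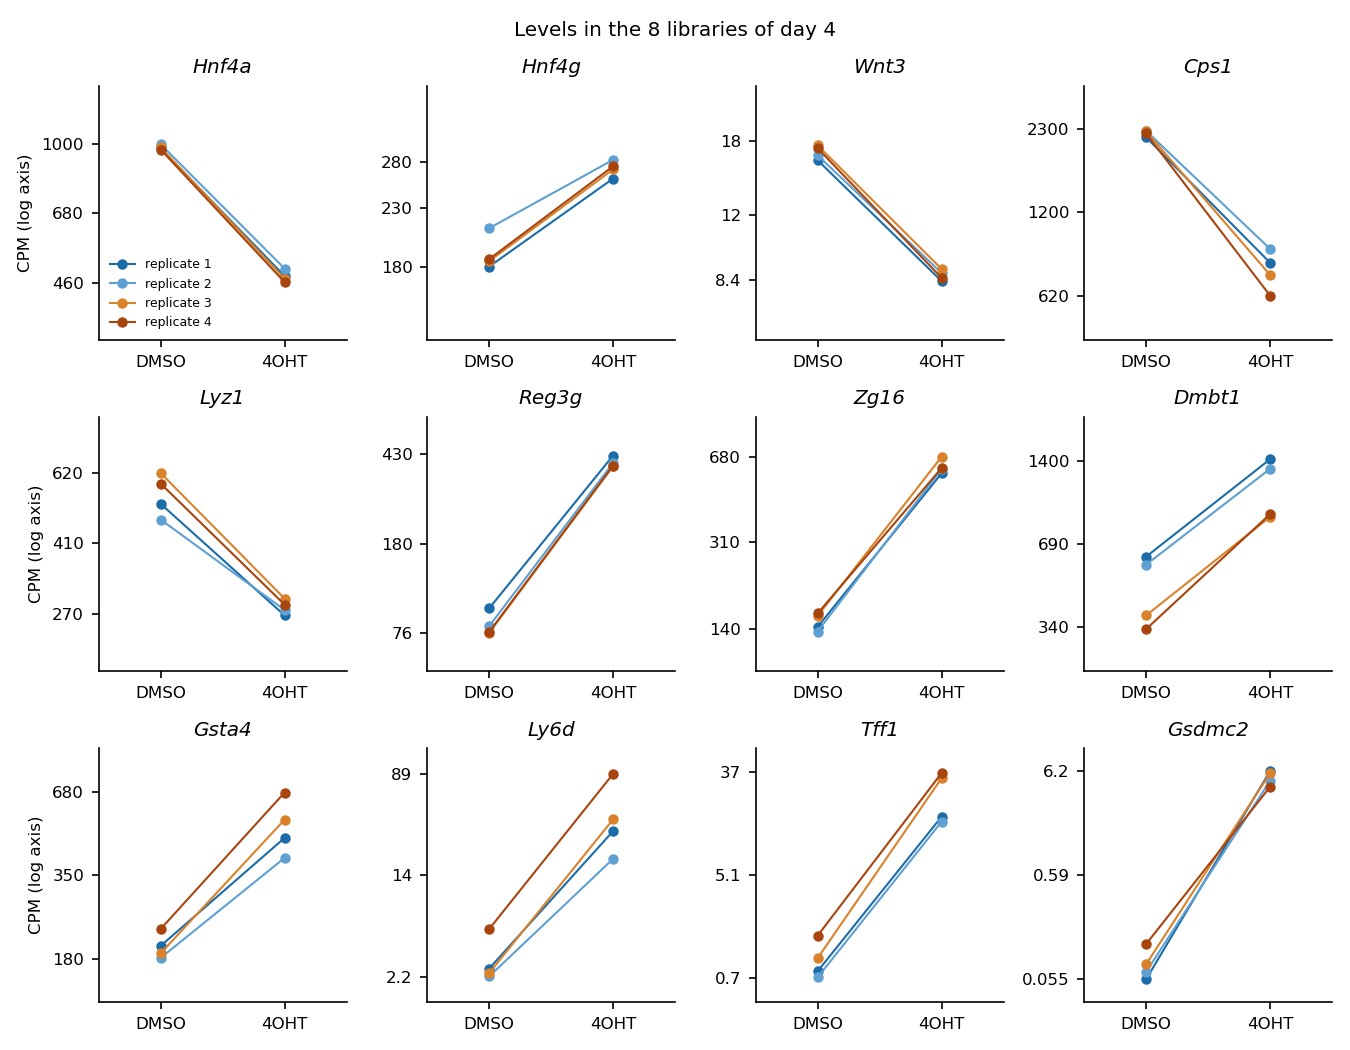
TMM-scaled CPM (log axis) of 12 genes in the 8 libraries of day 4; each line joins the DMSO and the 4OHT library of the same replicate number. Hnf4a, Wnt3, Cps1 and Lyz1 are lower in all 4 pairs, Hnf4g, Tff1, Ly6d, Zg16, Reg3g, Gsdmc2, Gsta4 and Dmbt1 are higher in all 4, and the lines of Dmbt1 lie at 2 levels, numbers 1 and 2 above numbers 3 and 4.

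By edgeR, 2191 of the 16040 tested genes were higher in 4OHT (13.7%) and 1776 were lower (11.1%) at an adjusted p below 0.05. With the replicate block these counts rose to 3651 (22.8%) and 3565 (22.2%). Of the genes called without the block, 3961 were called in the same direction with it and 6 were not, and the median SE fell from 0.0886 to 0.0514. Changes were mostly small: the median log2 fold change was 0.459 among the higher and -0.313 among the lower genes, and -0.0070 over all tested genes. Large changes were mostly rises, with 486 genes higher by at least 2-fold (3.03%) and 129 lower (0.804%), and 167 and 9 past 4-fold. Without 4OHT replicate 4, 2082 genes were higher and 1574 lower. That library was the highest of its group for 35.7% of all tested genes, for 63.0% of the genes called higher and for 72.0% of those called higher at least 2-fold.

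**Figure D2:**
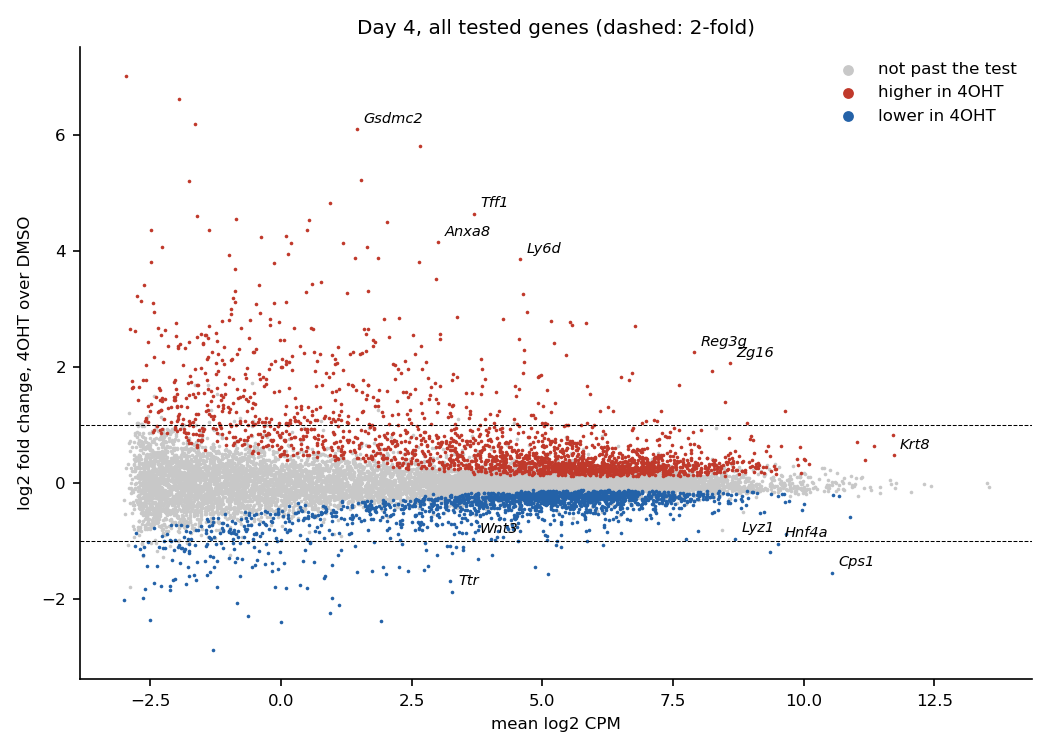
Log2 fold change of 4OHT over DMSO (y axis) against mean log2 CPM (x axis) for the 16040 tested genes of day 4; grey points did not pass the test and coloured points passed at an adjusted p below 0.05. The cloud above 2-fold (486 genes) is denser than that below (129 genes), and the named genes span the range of expression levels.

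Short DNA stretches before the starts of changed genes are shown first, since Hnf4a encodes a DNA-binding factor. Letters bound by AP-1 were searched as well. Genes of the AP-1 factors Fos, Fosl1 and Junb were higher in 4OHT, and a role for them was not tested. Of 22 immediate early genes tested, 9 rose, 1 fell and 12 passed in neither direction (13 rose and 3 fell with the block). Of all genes, 13.7% were higher and 11.1% lower (22.8% and 22.2% with the block). Windows from 250 bases before to 50 bases after each start (RefSeq, GRCm38.p6) were found for 11061 tested genes and searched on both strands. The letters TGANTCA, the core that AP-1 dimers bind, stood in 51 of 329 windows of genes higher at least 2-fold (15.5%), in 5 of 88 of genes lower at least 2-fold (5.68%) and in 730 of all 11061 (6.60%). The letters CAAAGNNCA, a relaxed form of the core that HNF4 binds, stood in 12 of 88 windows of genes lower at least 2-fold (13.6%), in 11 of 329 of those higher (3.34%) and in 715 of all (6.46%). Over all genes past the test, whatever their fold, the relaxed letters stood in 7.66% of the windows of lower and 6.35% of those of higher genes, both near the share over all, and the AP-1 letters in 5.76% and 11.3%. The exact letters CAAAGTCCA were rare, in 70 windows (0.633%), and stood in 0.584% of the windows of lower and 0.977% of those of higher genes. The antioxidant element TGACNNNGC, which NRF2 binds, stood in 14.6% of windows of genes higher at least 2-fold and in 16.9% of all. It can overlap the AP-1 letters, and every exact HNF4 match is also a relaxed one. These are counts of letters, not of bound sites, and no test was made of them. The genes shown here were chosen after their values were seen, from those with a single window, and a chromosome was left out. By CPM, they are the 4 highest that rose at least 2-fold with the AP-1 letters wholly before the start. The other 2 are the highest that fell so with the HNF4 letters. Each stretch has up to 30 bases on either side. All stretches read 5′ to 3′ on the gene's strand and end before the start, and capitals mark the matched letters.

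S100a11, chr3:93520428-93520494, plus strand: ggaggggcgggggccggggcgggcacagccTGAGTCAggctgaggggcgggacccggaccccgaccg
Reg1, chr6:78425836-78425902, plus strand: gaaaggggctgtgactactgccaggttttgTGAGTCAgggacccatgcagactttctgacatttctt
Anxa10, chr8:62123194-62123239, minus strand: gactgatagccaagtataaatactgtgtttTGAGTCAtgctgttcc
Capn2, chr1:182517757-182517823, minus strand: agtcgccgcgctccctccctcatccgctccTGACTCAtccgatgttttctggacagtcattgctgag
Slc22a3, chr17:12507859-12507927, minus strand: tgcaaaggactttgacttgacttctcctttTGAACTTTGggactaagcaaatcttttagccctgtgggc
Dpysl5, chr5:30711515-30711563, plus strand: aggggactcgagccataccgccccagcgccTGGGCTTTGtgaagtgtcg

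In these 6 stretches the match began 38 (S100a11), 117 (Reg1), 16 (Anxa10), 183 (Capn2), 193 (Slc22a3) and 19 (Dpysl5) bases before the start. Anxa10, a calcium-dependent membrane-binding protein, rose by log2 2.42, Capn2, a calcium-activated protease, by 1.90, Reg1, a secreted lectin of regenerating gut, by 1.78, and S100a11 by 1.25. Slc22a3, an organic cation transporter, fell by 1.23 on the log2 scale and Dpysl5 by 1.51. The windows of 6 of the genes with the largest changes held none of the letters searched: Rassf5, Slc1a1, Vwa2 and Prss12 (HNF4) and Anxa8 and Sptssb (AP-1).

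The 15 largest rises among well-expressed genes whose groups did not overlap ran from 2.47 (Pear1) to 4.64 (Tff1) on the log2 scale. Tff1, a trefoil peptide of gastric pit mucus, measured 0.791, 0.704, 1.02 and 1.57 CPM in DMSO and 15.7, 14.3, 33.1 and 36.6 CPM in 4OHT (log2 4.64 ± 0.41, edgeR adjusted p = 0.000123). Ly6d, a surface protein of keratinocytes, rose from 2.56, 2.22, 2.36 and 5.26 CPM to 31.3, 18.9, 38.7 and 88.7 CPM (log2 3.86 ± 0.52, edgeR adjusted p = 0.000927). Replicate 4 was the highest of the 4 libraries in both groups for each of these. The same was true of Anxa8 (log2 4.15 ± 0.42), Krt4, a keratin of stratified epithelium (3.25 ± 0.38), Sptssb (2.94 ± 0.29), Capg, which caps actin filaments (2.83 ± 0.35), Il1rn, the antagonist of the interleukin 1 receptor (2.79 ± 0.36), Lgals3 (2.75 ± 0.37), Ly6a (2.73 ± 0.47) and Msln, mesothelin (2.70 ± 0.35). Fut2, which makes fucosylated surface glycans, was less variable: 10.8, 12.1, 10.3 and 13.8 CPM in DMSO against 78.0, 67.2, 71.7 and 104 CPM in 4OHT (log2 2.77 ± 0.15, edgeR adjusted p = 4.78e-06). All of these calls held in each fit that left out 1 library.

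Some genes were nearly silent in the controls. Under 0.5 CPM in every DMSO library and over 1 CPM in every 4OHT library were 18 genes, and 2 genes showed the reverse. Gsdmc2, a member of the gasdermin C family of pore-forming proteins, measured 0.0549, 0.0649, 0.0772 and 0.122 CPM in DMSO and 6.23, 4.98, 5.93 and 4.35 CPM in 4OHT (log2 6.10 ± 0.23, edgeR adjusted p = 3.18e-07). Its neighbour Gsdmc4 rose from 0.229 to 0.461 CPM to 4.97 to 9.43 CPM (log2 4.50 ± 0.26). Gasdermin C genes are close copies, and reads could be shared between them. Unlike the genes above, neither was highest in 4OHT replicate 4. Ly6g, another surface protein of the Ly6 family, rose from at most 0.336 CPM to 8.68, 5.28, 9.32 and 26.4 CPM (log2 5.81 ± 0.63). The mast cell protease gene Mcpt2 (log2 5.22 ± 0.45), Krt79 (4.82 ± 0.49) and Ivl, involucrin of the cornified envelope (4.53 ± 0.41), also passed. The 2 genes in the reverse pattern were Fgr, a Src-family kinase (1.81, 1.33, 1.88 and 1.56 CPM to 0.326, 0.474, 0.262 and 0.187 CPM, log2 -2.39 ± 0.25), and Kctd15 (log2 -1.78 ± 0.20).

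The largest falls were smaller than the largest rises. Ttr, transthyretin, a carrier protein and a classical liver target of HNF4A, measured 15.9, 15.9, 15.7 and 13.0 CPM in DMSO and 4.43, 4.89, 3.51 and 3.74 CPM in 4OHT (log2 -1.87 ± 0.12, edgeR adjusted p = 8.23e-06). Rassf5, a Ras effector, fell by 1.68 ± 0.12 on the log2 scale and the glutamate transporter gene Slc1a1 by 1.57 ± 0.10. At a far higher CPM was Cps1, the mitochondrial enzyme that makes carbamoyl phosphate, at 2155, 2265, 2257 and 2221 CPM in DMSO and 805, 898, 732 and 622 CPM in 4OHT (log2 -1.54 ± 0.10, edgeR adjusted p = 1.11e-05). None of the 15 largest falls overlapped between groups, as the rule that chose them required. Others of them, from Vwa2 (log2 -1.30 ± 0.21) and Prss12 (-1.23 ± 0.09) to Steap3 (-1.09 ± 0.08) and Usp2 (-1.08 ± 0.09), lay close together in size.

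Defensin genes of Paneth cells fell together, while other granule genes split. Among all tested genes, 13.7% were higher and 11.1% lower (22.8% and 22.2% with the block). Of 15 alpha-defensin genes tested, 13 were lower and 0 higher (median log2 -0.587). Defa24, with the highest CPM of them, measured 752, 633, 766 and 693 CPM in DMSO and 493, 493, 536 and 482 CPM in 4OHT (log2 -0.51 ± 0.07, edgeR adjusted p = 0.000633), and Defa21 fell by 0.82 ± 0.10. These genes are near-identical copies, so reads may be shared among them. Of 15 other granule genes, 4 fell and 5 rose (with the block 5 and 8), and the rises numbered 3 without DMSO replicate 1, 2 or 3 or 4OHT replicate 3. Lyz1, Paneth lysozyme, fell from 516, 470, 619 and 581 CPM to 268, 276, 296 and 285 CPM (log2 -0.96 ± 0.08, edgeR adjusted p = 5.09e-05), while Itln1, an abundant lectin of the same granules, measured 970 to 1185 CPM and 1023 to 1077 CPM (log2 -0.04 ± 0.07). Mptx1, a pentraxin of crypt cells, was higher in every 4OHT library, at 8.29, 6.27, 6.64 and 6.10 CPM against 24.8, 23.1, 21.7 and 17.3 CPM (log2 1.67 ± 0.13). Of 14 regulators of the lineage, Wnt3 among them, 1 rose (7.14%, below the share over all genes) and 5 fell (35.7%), against 2 and 9 with the block. The falls numbered 3 without DMSO replicate 1 or 2 or 4OHT replicate 3 or 4, and 2 rose without 4OHT replicate 2. Bhlha15, which matures secretory cells, fell by 0.47 on the log2 scale, and the rise with all libraries was in Spdef, a factor for goblet and Paneth cells (log2 0.31 ± 0.05).

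Goblet cell genes were mostly higher, against 13.7% of all genes higher and 11.1% lower (22.8% and 22.2% with the block). Of 23 tested, 14 rose and 1 fell (median log2 0.515). The fall, in Clca3b, was lost without any of DMSO replicates 1 to 4 or 4OHT replicate 3 or 4, and with the block 2 fell. Zg16, a lectin of the mucus layer, measured 142, 136, 157 and 161 CPM in DMSO and 587, 611, 683 and 616 CPM in 4OHT (log2 2.07 ± 0.07, edgeR adjusted p = 3.18e-07). Clca1, a secreted mucus metalloprotease, rose from 137, 112, 120 and 135 CPM to 508, 480, 480 and 463 CPM (log2 1.94 ± 0.07). The groups were far apart and the 4 4OHT libraries lay close together. The mucin gene Muc2, chosen after its values were seen, followed the replicate numbers instead: 340, 313, 127 and 102 CPM in DMSO and 642, 603, 274 and 174 CPM in 4OHT. The groups overlapped, although 4OHT was higher in all 4 pairs, and the call depended on the block (log2 0.94 ± 0.51, edgeR adjusted p = 0.217, and 4.67e-07 with the block). Fcgbp (log2 0.82 ± 0.19) and the scavenger receptor gene Dmbt1, at 621, 580, 377 and 335 CPM against 1425, 1313, 872 and 893 CPM (log2 1.23 ± 0.24), showed the same split and passed in both fits. Of 20 enteroendocrine hormone and granin genes, 5 rose (25.0%) and 0 fell. With the block these were 8 and 3, the falls a smaller share than over all genes. Without 4OHT replicate 4, 1 was lower. Ghrl, ghrelin, rose from 5.65 to 6.91 CPM to 9.66 to 10.8 CPM (log2 0.71 ± 0.08) and Sst, somatostatin, by log2 1.23 ± 0.22, while Chgb, with the highest CPM of the list, measured log2 -0.04 ± 0.10.

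Genes of the crypt base and of proliferation were lower, against 11.1% of all genes lower and 13.7% higher (22.2% and 22.8% with the block). Of 24 stem cell genes, 15 fell and 0 rose (median log2 -0.338). With the block 1 was higher, with the block and without both libraries numbered 4, 3 were, and without 4OHT replicate 2, 2 were. Olfm4, a secreted marker of crypt base cells, measured 2093, 2134, 2450 and 2426 CPM in DMSO and 1592, 1578, 1593 and 1331 CPM in 4OHT (log2 -0.58 ± 0.08, edgeR adjusted p = 0.000784). Msi1, an RNA-binding protein of stem cells, fell further (log2 -1.06 ± 0.13), and Ascl2, a stem cell transcription factor, by 0.79 ± 0.09. Lgr5, the best-known marker and named here for that reason, measured 203, 173, 178 and 189 CPM against 183, 129, 130 and 142 CPM. Its groups overlapped, and its call (log2 -0.35 ± 0.11, edgeR adjusted p = 0.0403) was lost in 7 of the 8 fits that left out 1 library, all but that without 4OHT replicate 1. Of 21 Wnt target and feedback genes, 12 fell and 1 rose: Ccnd2, cyclin D2 (log2 0.64 ± 0.09).

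DNA replication genes fell almost without exception but by little. Of 37 tested, 36 were lower and 0 higher (median log2 -0.313), against 11.1% lower among all genes. Pold1, the catalytic subunit of polymerase delta, measured 111, 109, 105 and 105 CPM in DMSO and 81.1, 78.8, 69.2 and 68.1 CPM in 4OHT (log2 -0.54 ± 0.06, edgeR adjusted p = 0.000300). The helicase subunit Mcm6 fell by 0.32 ± 0.05 and the sliding clamp Pcna by 0.31 ± 0.05. Of 35 mitosis genes, 25 fell and 0 rose (median log2 -0.228), among them Mad2l1 of the spindle checkpoint (log2 -0.37 ± 0.05) and cyclin A2, Ccna2 (log2 -0.24 ± 0.04). Mki67 was not among them (log2 -0.24 ± 0.18, edgeR adjusted p = 0.387): it measured 379, 401, 284 and 287 CPM and 330, 368, 231 and 218 CPM, lower in each pair, with overlapping groups, and passed only with the block (edgeR adjusted p = 0.000738). Among cell cycle regulators, the inhibitor gene Cdkn2a rose from 3.36, 3.52, 3.27 and 4.16 CPM to 10.2, 9.09, 11.9 and 15.9 CPM (log2 1.72 ± 0.17, edgeR adjusted p = 0.000108). Mycn fell from 1.54 to 2.13 CPM to 0.449 to 0.712 CPM (log2 -1.76 ± 0.17), Myc by 0.27 ± 0.04, and the G1 cyclin gene Ccnd1 measured log2 0.01 ± 0.06.

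Targets of the tumour suppressor p53 were mostly higher, where 13.7% of all genes were higher and 11.1% lower (22.8% and 22.2% with the block). Of 32 tested, 18 rose and 1 fell (median log2 0.326), the fall being Cdc42ep1 (log2 -0.27 ± 0.07). The falls numbered 2 without DMSO replicate 4 or 4OHT replicate 1, and 4 with the block. Zmat3, an RNA-binding target, measured 27.6, 27.8, 26.6 and 32.4 CPM in DMSO and 56.4, 50.6, 54.6 and 63.5 CPM in 4OHT (log2 0.98 ± 0.08, edgeR adjusted p = 4.31e-05). Plk2, a stress-induced kinase, rose by log2 1.10 ± 0.09 and Ccng1, cyclin G1, by 0.92 ± 0.16. Cdkn1a, the p53-induced inhibitor p21, measured 156 to 208 CPM and 207 to 341 CPM with overlapping groups (log2 0.56 ± 0.16, edgeR adjusted p = 0.0277). Its call was lost without DMSO replicate 1 or 2 or 4OHT replicate 3 or 4.

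Genes of the fetal and regenerating epithelium were mostly higher, where 13.7% of all genes were higher and 11.1% lower (22.8% and 22.2% with the block). Of 31 tested, 25 rose and 2 fell, Gjb2 and Mfge8 (median log2 1.63, against -0.0070 over all genes), 18 of them at least 2-fold. In 4OHT, replicate 4 was the highest library for 30 of the 31, and in DMSO replicate 4 was the highest for 25. Without 4OHT replicate 4 the median was 1.39 and 25 still passed upwards, and with both libraries numbered 4 left out and the block it was 1.47. Clu, clusterin, a marker of regenerative crypt cells chosen after its values were seen, showed the pattern: 44.6, 33.2, 28.3 and 70.7 CPM in DMSO and 142, 110, 193 and 216 CPM in 4OHT (log2 1.90 ± 0.31, edgeR adjusted p = 0.00242). All 12 annexins, membrane-binding proteins of repair, lay above 0 and 11 passed (median log2 1.01), from Anxa11 (log2 0.25) to Anxa8. Anxa2 measured 366, 324, 385 and 410 CPM against 555, 486, 644 and 910 CPM (log2 0.81 ± 0.17). Of 18 keratins 9 were tested, and 7 of those rose, including the simple keratins Krt8 (log2 0.48 ± 0.08), Krt19 (0.71 ± 0.09) and Krt7 (0.74 ± 0.09). Krt15 alone of them fell, by 0.94 on the log2 scale. Of 29 targets of the co-activator YAP, which drives regenerative growth, 13 rose and 0 fell. With the block these were 15 and 3, the falls a smaller share than over all genes. Amotl1 rose by log2 2.24 ± 0.32, and Areg, an EGF receptor ligand, by 1.82 ± 0.34, while Yap1 itself measured log2 -0.10 ± 0.04.

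Most of the gastric and squamous genes that could be tested were higher, against 13.7% of all genes (22.8% with the block). Of 22 gastric genes, 18 had counts and 15 were tested, of which 12 rose and 2 fell (median log2 1.89). The list summed to 63.0 to 77.3 CPM in DMSO and 128 to 243 CPM in 4OHT. Vsig1, a junction protein of stomach epithelium, rose from 0.846, 0.585, 0.710 and 1.21 CPM to 9.96, 8.19, 11.2 and 17.2 CPM (log2 3.81 ± 0.28, edgeR adjusted p = 2.39e-05). Pgc, pepsinogen C, went the other way, from 2.12 to 2.19 CPM to 0.527 to 0.812 CPM (log2 -1.80 ± 0.15). The other fall, Gkn3, was lost without DMSO replicate 1, 3 or 4. Of 28 squamous and cornified envelope genes, 20 had counts and 12 were tested. Of these 12, 7 rose and 1 fell, and 11 rose with the block. A gene can pass the filter on low counts through a single group, so shares of tested members need not hold for a whole list. The sum of the 20 genes overlapped between groups, at 443 to 503 CPM in DMSO and 464 to 713 CPM in 4OHT. The fall was in Tgm2, a transglutaminase (log2 -0.25 ± 0.05). Cav2, a caveolin, rose by log2 2.83 ± 0.24 and Serpinb5, maspin, by 1.67 ± 0.24.

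**Figure D3:**
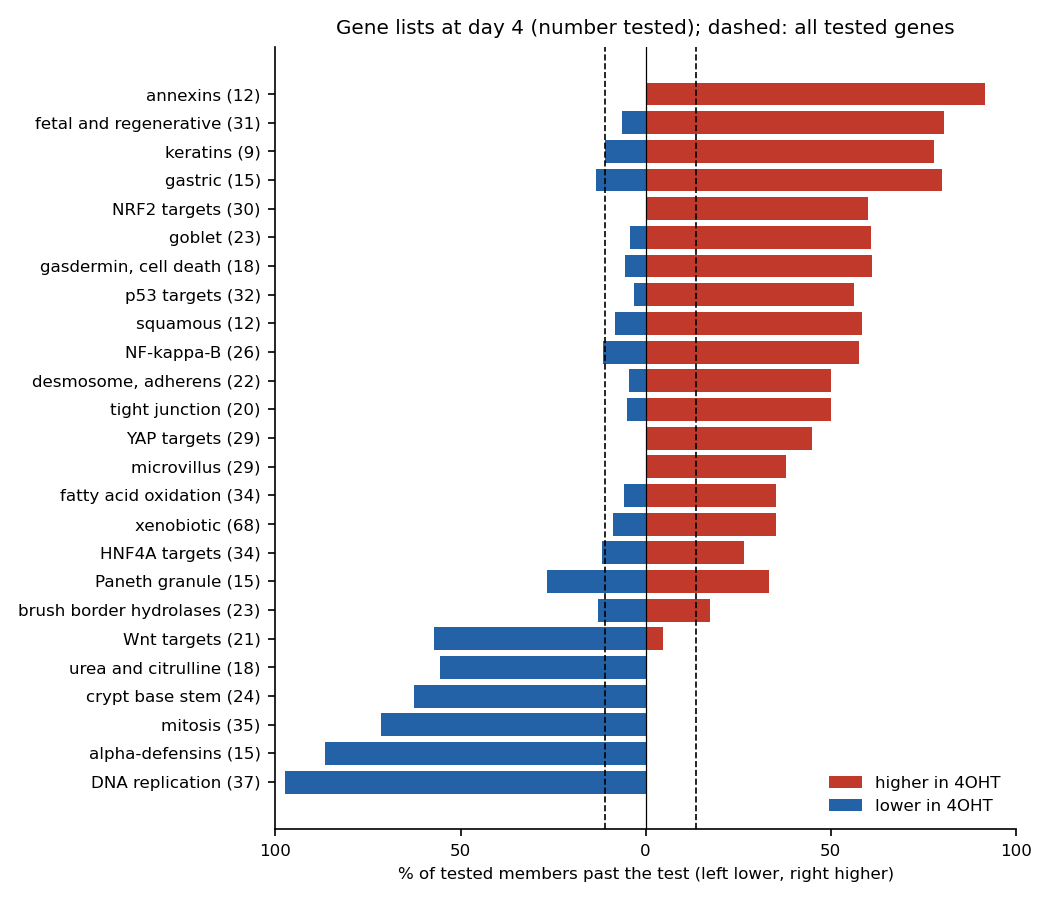
For 25 gene lists, the percentage of tested members higher (right) and lower (left) in 4OHT at an edgeR adjusted p below 0.05; dashed lines mark the shares over all 16040 tested genes, 13.7% higher and 11.1% lower. Annexins (91.7% higher), fetal genes (80.6%) and gastric genes (80.0%) stand at one end and DNA replication (97.3% lower) and alpha-defensins (86.7%) at the other, with brush border hydrolases (17.4% higher, 13.0% lower) near the dashed lines.

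Among transcription factors of intestinal identity, Hnf4a included, 11 of 41 tested were higher and 4 lower, where 13.7% and 11.1% of all genes were, and with the block 17 and 10 (22.8% and 22.2% of all genes). The median of the list was log2 0.0659. The higher count was 6 or 7 without DMSO replicate 1, 3 or 4 or 4OHT replicate 3, and the lower count 2 without DMSO replicate 1, 2 or 3 or 4OHT replicate 3. Cdx2, which sets intestinal identity, measured 225 to 228 CPM in DMSO and 204 to 238 CPM in 4OHT (log2 -0.06 ± 0.05) and Gata4 log2 0.03 ± 0.05. Foxa1, a pioneer factor, rose from 56.0, 58.9, 51.9 and 60.0 CPM to 78.2, 76.8, 75.3 and 90.8 CPM (log2 0.50 ± 0.07, edgeR adjusted p = 0.000713) while its paralog Foxa2 fell by 0.31 ± 0.06. The lipid-sensing receptors Ppard (log2 0.39 ± 0.05) and Pparg (0.66 ± 0.14) also rose. After Hnf4a itself, no factor of the list fell past 2-fold.

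At day 4 the classical HNF4A targets of liver and gut did not fall as a group, although more fell than rose at day 2 (given below). Of all tested genes, 13.7% were higher and 11.1% lower (22.8% and 22.2% with the block). Of 34 tested, 9 rose and 4 fell (median log2 0.111): Ttr, Cps1, the urea cycle gene Otc (log2 -0.61 ± 0.08) and the gluconeogenic gene Fbp1 (log2 -0.63 ± 0.11). Apoa1, a lipoprotein component, measured 1261, 1334, 1372 and 1379 CPM in DMSO and 1456, 1813, 1734 and 1261 CPM in 4OHT (log2 0.23 ± 0.10, edgeR adjusted p = 0.141). Its 4OHT libraries spanned the DMSO range, with replicate 4 lowest. Apob (log2 0.11 ± 0.13) and Apoa4 (0.05 ± 0.15) did not pass either. Of 23 brush border hydrolases, 4 rose and 3 fell, and the falls numbered 1 without DMSO replicate 1, 2, 3 or 4 or 4OHT replicate 1, and 5 without 4OHT replicate 2. Alpi, intestinal alkaline phosphatase, rose from 111, 123, 125 and 142 CPM to 207, 225, 274 and 254 CPM (log2 0.94 ± 0.10, edgeR adjusted p = 0.000150). Dpp4, a dipeptidyl peptidase, fell by 0.38 ± 0.04. Sis, sucrase-isomaltase, measured 3320 to 3744 CPM and 2781 to 4181 CPM (log2 -0.01 ± 0.11). Both others that fell, Mep1a and Naaladl1, had calls that single libraries decided. Of 29 genes of microvillus structure, 11 rose and 0 fell, with the block 17 and 2, including Cdhr5 of the inter-microvillar links (log2 0.39 ± 0.06) and Mylk (0.46 ± 0.04).

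Citrulline synthesis, by which enterocytes turn glutamine into a precursor of arginine, shares several genes with the urea cycle. Of 18 genes of both, 10 fell, 0 rose and 8 passed in neither direction (median log2 -0.265). The shares over all genes were 11.1% lower and 13.7% higher (22.2% and 22.8% with the block). With the block or without 4OHT replicate 4, 1 of the 18 rose, and 2 with the block and without both libraries numbered 4. Aldh18a1, which makes the intermediate pyrroline-5-carboxylate, measured 506, 525, 507 and 498 CPM in DMSO and 378, 421, 367 and 349 CPM in 4OHT (log2 -0.43 ± 0.06, edgeR adjusted p = 0.000834). Besides Cps1 and Otc, the glutaminase gene Gls2 fell by 0.70 ± 0.09. The falls were unequal: the summed list went from 5670 to 5720 CPM to 3420 to 3910 CPM, and Cps1 alone made up more than the rest of that difference.

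Xenobiotic metabolism and NRF2 targets leaned upwards, where 13.7% of all genes were higher and 11.1% lower (22.8% and 22.2% with the block). Of 68 phase 1 and phase 2 genes, 24 rose (35.3%) and 6 fell (8.82%, near the share over all genes). These falls numbered 2 or 3 without DMSO replicate 1 or 3 or 4OHT replicate 3. Of 30 NRF2 targets, which defend against oxidants, 18 rose and 0 fell (median log2 0.311), and 1 was lower with the block or without 4OHT replicate 4. Gsta4, a glutathione transferase for lipid aldehydes, measured 200, 182, 189 and 229 CPM in DMSO and 471, 402, 545 and 675 CPM in 4OHT (log2 1.39 ± 0.14, edgeR adjusted p = 0.000168). Akr1b8, an aldo-keto reductase, rose from 36.4 to 46.3 CPM to 112 to 197 CPM (log2 1.83 ± 0.17) and Gclc, which limits glutathione synthesis, by 0.56 ± 0.07. The abundant carboxylesterase gene Ces2a rose by log2 0.64 ± 0.07, from 481 to 509 CPM to 686 to 846 CPM. In DMSO, replicate 4 was the highest library for 24 of the 30 NRF2 targets, and in 4OHT for 21. Of 34 genes of fatty acid oxidation and ketogenesis, 12 rose and 2 fell (with the block 19 and 4), and the falls numbered 1 without DMSO replicate 1 or 3 or 4OHT replicate 1 or 3.

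Metal, ion, water and bile acid handling held single genes with large changes in both directions. Over all genes 13.7% were higher and 11.1% lower (22.8% and 22.2% with the block). The metallothionein genes Mt1 and Mt2, which buffer zinc and copper, both fell, Mt1 from 1102, 1111, 1013 and 1003 CPM to 588, 673, 577 and 450 CPM (log2 -0.89 ± 0.11, edgeR adjusted p = 0.000331). Slc39a4, the apical zinc importer, rose from 75.9, 72.8, 80.2 and 88.0 CPM to 151, 131, 166 and 200 CPM (log2 1.03 ± 0.12), and the basolateral importer Slc39a5 fell by 0.52 ± 0.06. In the list of 20 metallothionein and zinc transport genes 6 fell and 5 rose, against 10 and 8 with the block and without both libraries numbered 4. Of 33 ion and water transport genes 11 rose and 7 fell, and with the block 15 and 12. The rises of this list numbered 7 without DMSO replicate 3 or 4OHT replicate 3. Aqp1, a water channel, fell from 351, 326, 310 and 297 CPM to 206, 195, 171 and 156 CPM (log2 -0.82 ± 0.09), while Aqp3, another, rose (log2 1.30 ± 0.11), as did the chloride channel gene Ano1 (log2 1.85 ± 0.20). Of 13 genes of bile acid handling 6 rose and 2 fell, and 3 fell with the block. The falls numbered 1 without DMSO replicate 1 or 3 or any of 4OHT replicates 1 to 4. Fgf15, an ileal hormone that represses bile acid synthesis, rose from 1.71 to 2.32 CPM to 3.03 to 7.44 CPM (log2 1.32 ± 0.25). Fgfr4, the main receptor for it, fell from 21.7, 25.2, 17.6 and 21.3 CPM to 11.2, 12.2, 11.2 and 9.57 CPM (log2 -0.96 ± 0.11, edgeR adjusted p = 0.000255).

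Epithelial defence genes were higher more often than lower, where 13.7% of all genes were higher and 11.1% lower (22.8% and 22.2% with the block). Reg3g, a bactericidal lectin, measured 96.8, 81.5, 76.4 and 77.0 CPM in DMSO and 425, 396, 383 and 386 CPM in 4OHT (log2 2.26 ± 0.08, edgeR adjusted p = 3.18e-07), a wide gap between narrow groups. Of 11 Reg and other antimicrobial genes 5 rose and 0 fell. With the block 2 were lower, and without 4OHT replicate 1, 1 was. Of 26 genes of NF-kappa-B and inflammatory signalling, 15 rose and 3 fell (median log2 0.547). Ccl20, which attracts lymphocytes, rose from 1.44 to 2.22 CPM to 4.26 to 5.58 CPM (log2 1.49 ± 0.16), Nox1, an epithelial NADPH oxidase, by 1.03 ± 0.10, and the chemokine gene Ccl28 fell by 0.49 ± 0.08. Of 18 gasdermin and cell death genes, 11 rose and 1, Dfna5, fell (median log2 0.348), Gsdmd among the abundant ones: 90.3, 88.2, 85.0 and 95.0 CPM in DMSO and 187, 165, 185 and 224 CPM in 4OHT (log2 1.09 ± 0.08, edgeR adjusted p = 3.02e-05). Of 31 interferon response genes, 9 rose and 1 fell, Psmb9 of the immunoproteasome (log2 -0.41 ± 0.10), and 2 fell without 4OHT replicate 4 or with the block. Oas1a was one of those that rose (log2 0.93 ± 0.10). The markers of immune cells stayed at the sums given above.

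Adhesion genes were higher more often than lower, where 13.7% of all genes were higher and 11.1% lower (22.8% and 22.2% with the block). Of 20 tight junction genes 10 rose and 1 fell (11 and 2 with the block), of 22 desmosome and adherens junction genes 11 rose and 1 fell (17 and 2 with the block), and of 32 integrin and matrix genes 15 rose and 2 fell. The single falls of the first 2 lists were in Cldn15, a claudin of cation and water flow (388, 360, 395 and 371 CPM to 271, 285, 297 and 245 CPM, log2 -0.46 ± 0.06), and Pkp1, a plakophilin of desmosomes. Pkp1 measured 73.4, 77.1, 77.3 and 79.5 CPM in DMSO and 37.9, 41.0, 38.8 and 36.9 CPM in 4OHT, with very little spread in either group (log2 -0.99 ± 0.05, edgeR adjusted p = 2.21e-06). Among the rises were Ildr1, of tricellular junctions (log2 1.86 ± 0.22), Ppl, periplakin (0.86 ± 0.09), Itgb4, of hemidesmosomes (0.61 ± 0.09), and Itgb7, which rose from 0.703 to 0.895 CPM to 4.39 to 5.80 CPM (log2 2.66 ± 0.14).

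Signalling genes moved in both directions. Over all genes 13.7% were higher and 11.1% lower (22.8% and 22.2% with the block). Of 24 Wnt ligand, receptor and secretion genes, 6 rose and 9 fell, and the rises numbered 3 without 4OHT replicate 3. Beside the fall of Wnt3, Wnt9b fell from 2.19, 2.66, 2.75 and 3.12 CPM to 0.978, 0.986, 0.757 and 0.798 CPM (log2 -1.60 ± 0.15, edgeR adjusted p = 9.35e-05). Wnt4 rose from 0.406, 0.498, 0.355 and 0.520 CPM to 3.80, 3.03, 4.49 and 5.96 CPM (log2 3.27 ± 0.23, edgeR adjusted p = 1.90e-05). Of 24 EGF ligand and receptor genes, 7 rose and 1 fell, the factor gene Etv4 (log2 -0.37 ± 0.05). With the block 13 rose and 5 fell, and 2 fell without 4OHT replicate 2. The receptor gene Erbb2 rose by log2 0.31 ± 0.07. Of 24 Notch pathway and lineage genes, 2 rose (8.33%, below the share over all genes) and 6 fell (25.0%), and with the block 4 and 10. The ligand gene Jag1 rose by log2 0.54 ± 0.10 and Lfng, a glycosyltransferase that tunes Notch, fell by 0.54 ± 0.07. Of 27 genes of the BMP and TGF-beta pathways, 7 rose (25.9%) and 4 fell (14.8%, near the share over all genes), and 11 rose with the block. The ligand gene Bmp2 (log2 0.81 ± 0.15) and the target gene Id4 (1.56 ± 0.13) were among the rises. The falls depended on single libraries: 0 fell without DMSO replicate 3 or 4 or 4OHT replicate 1 or 3, 1 without 4OHT replicate 2, and 2 without DMSO replicate 1 or 2 or 4OHT replicate 4.

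Ribosomal protein genes and subunits of oxidative phosphorylation differed by small amounts. Of 76 cytosolic ribosomal protein genes, 0 passed in either direction by edgeR, against 0 higher and 29 lower with the block, where 22.2% of all genes were lower. With the block and without both libraries numbered 4, 62 were lower, where 22.1% of all genes were, and without the block 6 were lower when 4OHT replicate 4 was left out. At an unadjusted p below 0.05, 3 were lower and 0 higher, and DESeq2 called 1 lower. The median was log2 -0.103 and no member fell beyond 0.195 on the log2 scale. Of 70 subunits of oxidative phosphorylation, Sdha of complex II was lower (log2 -0.15 ± 0.04) and 0 were higher (median log2 -0.0397). With the block 11 were lower and 1 higher, smaller shares than those over all genes (22.2% and 22.8%). When both libraries numbered 4 were left out as well, 24 of the 70 were lower, a larger share than the 22.1% over all genes. The call of Sdha was lost without any of DMSO replicates 1 to 4 or 4OHT replicate 2 or 3.

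**Figure D4:**
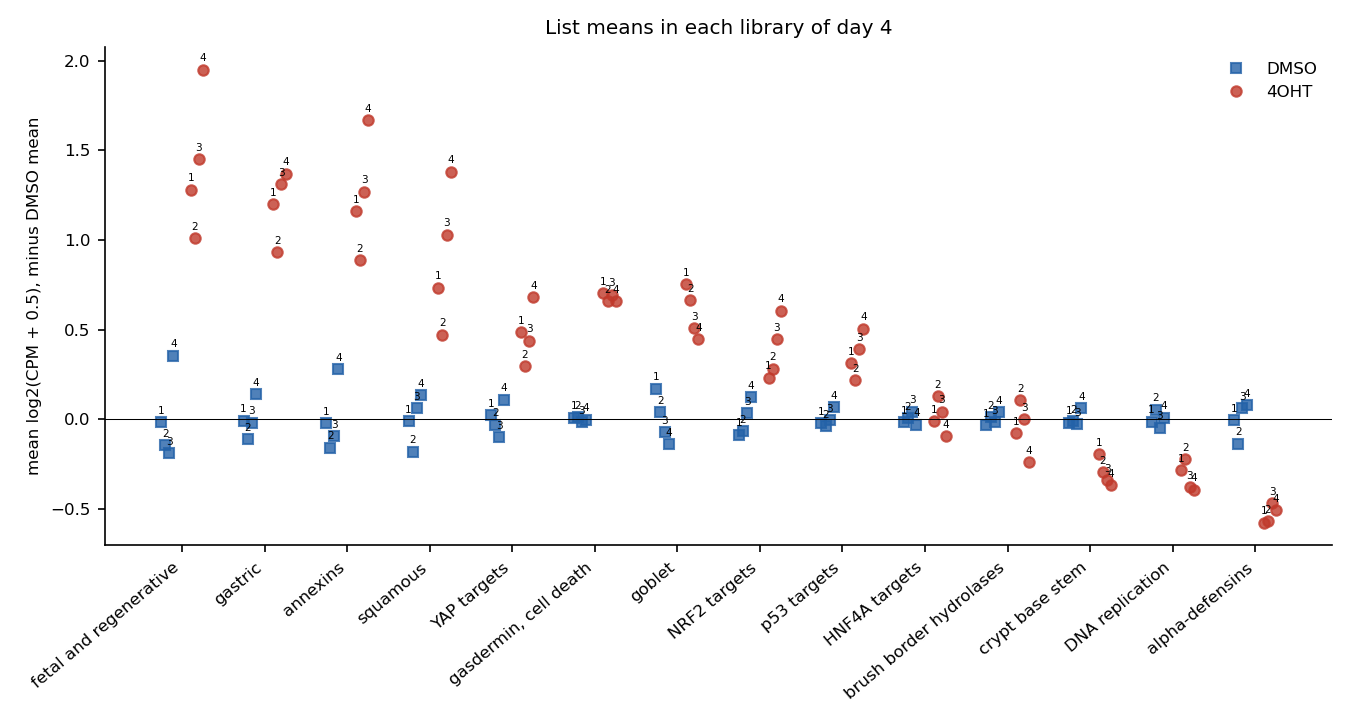
Mean log2(CPM + 0.5) of the tested members of 14 lists in each day 4 library, as the difference from the mean of the 4 DMSO libraries (y axis); squares are DMSO, circles are 4OHT and the labels 1 to 4 give the replicate number. Fetal genes in 4OHT run from 1.01 (replicate 2) to 1.95 (replicate 4), whereas gasdermin and cell death genes lie between 0.659 and 0.704, and goblet genes are higher in numbers 1 and 2 than in 3 and 4 in both treatments.

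The day 4 effect was compared with that of day 2 by a test of the difference between them, over all 16 libraries. Of 16597 genes tested, 199 had a higher effect at day 4 (1.20%) and 79 a lower one (0.476%). With the replicate block these were 1170 (7.05%) and 680 (4.10%). Leaving out any single library except DMSO replicate 4 or 4OHT replicate 1 of day 4 moved the first count by over 1.5 times, to between 66 (without 4OHT replicate 3 of day 2) and 502 (without DMSO replicate 4 of day 2). The second count ran from 28 to 225 over the same fits. Most day 4 calls had the same direction earlier: 1445 of the 2191 higher genes were also called higher at day 2 and 23 were called lower there, and of the 1776 lower genes 925 were called lower and 10 higher. Of these reversals, 32 passed the test of the difference.

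The effect on several detoxification and enterocyte genes was higher at day 4 than at day 2. Of the 68 xenobiotic genes, 18 had a higher effect at day 4 and 0 a lower one. At day 2, 34 of them had been lower and 7 higher (median log2 -0.297), where 14.3% and 16.9% of all genes tested that day were, against 6 and 24 at day 4 (median 0.119). Ces2a measured log2 -0.23 at day 2 and 0.64 at day 4 (difference 0.88 ± 0.16, edgeR adjusted p = 0.0123). Brush border hydrolases had a day 2 median of log2 -0.520, with 16 members lower and 1 higher, and a day 4 median of -0.0596, but the difference passed in only 2 of them, Alpi (0.72 ± 0.16) and Mep1b (0.70 ± 0.13). Of 34 fatty acid oxidation genes, 8 had a higher effect at day 4. With the block these counts were 46, 9 and 20, and with single libraries left out they ranged from 4 to 32 (xenobiotic), 1 to 7 (brush border) and 1 to 13 (fatty acid oxidation). The classical HNF4A targets had a day 2 median of log2 -0.371, with 17 of 32 tested lower and 2 higher, and a day 4 median of 0.111. The effect was higher at day 4 in 3 of 34 and lower in 0, and higher in 14 with the block. That count was 1 without 4OHT replicate 3 of day 2 and 13 without DMSO replicate 4 of day 2.

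**Figure D5:**
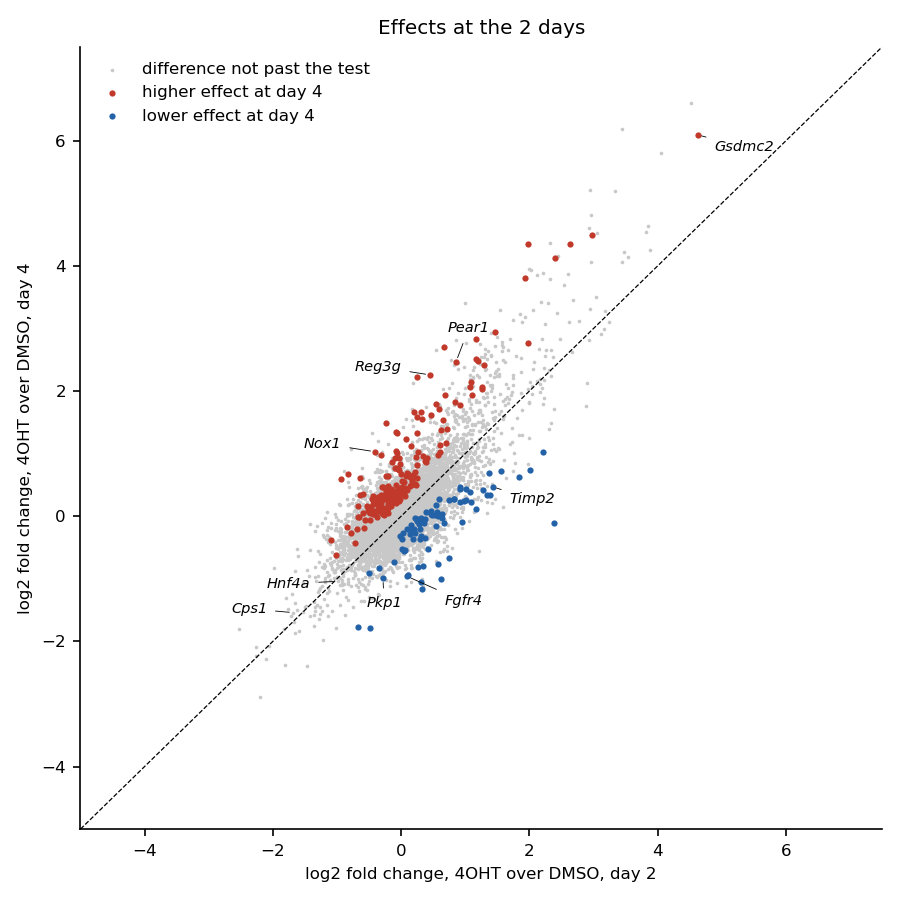
Log2 fold change of 4OHT over DMSO at day 2 (x axis) and day 4 (y axis) for genes tested at both days, each against the controls of its own day; coloured points passed the edgeR test of the difference between the days (adjusted p below 0.05). Most points follow the diagonal, and Reg3g, Pear1 and Nox1 lie above it and Fgfr4, Timp2 and Pkp1 below it.

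Larger differences between the days were found in single genes. Reg3g was at log2 0.45 at day 2 and 2.26 at day 4 (difference 1.82 ± 0.21, edgeR adjusted p = 0.000430). Nox1 reversed, from a fall of 0.41 at day 2 to the rise of day 4 (difference 1.45 ± 0.13, edgeR adjusted p = 6.83e-05), and Ccl20 likewise, from log2 -0.23 (1.72 ± 0.17). Pear1 (1.62 ± 0.18), Capg (1.67 ± 0.38), Sptssb (1.49 ± 0.30) and Mptx1 (1.48 ± 0.26) also rose more at day 4. In the other direction, Fgfr4 measured log2 0.09 at day 2 and fell at day 4 (difference -1.04 ± 0.13, edgeR adjusted p = 0.000430). Timp2, an inhibitor of matrix metalloproteases, rose by log2 1.43 at day 2 and 0.47 at day 4 (-0.95 ± 0.15), and Rgs12 went from a rise of 0.41 to a fall of 0.52 (-0.92 ± 0.12). Cdk6, a G1 kinase, rose at day 2 (log2 0.67) and measured log2 -0.11 ± 0.07 at day 4 (difference -0.77 ± 0.11). Hnf4a, Wnt3, Cps1 and Lyz1 showed differences of -0.05 to 0.14, none of which passed.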

How the data were processed

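Poly(A) RNA of organoid libraries (250 ng each, directional kit) was sequenced. The submitters' processing notes name bcl2fastq 1.8.4, STAR 2.4.0f1 and GRCm38, while no source used here names the counting program or gene annotation. The authors deposited, for each day, 1 table with raw read counts per gene and a normalized column for each sample. The raw counts were analysed and the 16 normalized per-sample columns were not used. The 2 days are separate tables, and the comparison between days fits their raw counts together. Coordinates come from GENCODE M21 (GRCm38), in which 20548 of the 20658 listed gene IDs were found, and 14 symbols that had turned into dates were replaced through their IDs.

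Genes passing edgeR's expression filter (16040) were tested by edgeR 4.0.16 (R 4.3.3) with TMM scaling and the robust quasi-likelihood test, over the 8 libraries of day 4 without a block. P-values were adjusted by Benjamini-Hochberg and called below 0.05, and each SE was derived from the fold change and its F statistic. The difference between days is the interaction term over 16 libraries. The code was tested on simulated data. Same-numbered DMSO and 4OHT libraries deviated together (correlations of 0.707, 0.813, 0.639 and 0.701 over 9792 genes), so the numbers pair libraries, and the replicate block was fitted as an alternative, besides DESeq2 1.42.0, other filters and scalings, thinned counts and single libraries left out. No pair of libraries of a group differed by as little as counting noise.

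Genes were named by rule: Hnf4a, Hnf4g and Wnt3, the 15 largest rises and falls among expressed genes whose groups do not overlap, the 10 most abundant past 2-fold, up to 10 switched on or off, 3 per list by p and 3 per list by abundance, all transcription factors of the factor lists, and 8 each way from the difference between days. Genes outside it (Anxa11, Capn2, Cdc42ep1, Clu, Dfna5, Dpysl5, Etv4, Fabp1, Gjb2, Gkn3, Krt15, Lgr5, Mep1a, Mfge8, Muc2, Naaladl1, Psmb9, S100a11, Sdha, Slc22a3 and Tgm2, where the rule did not also name them) were chosen after their values were seen. The lists and comparisons were chosen with earlier results of these data known. A few items are not reported here.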

Additional observations from a re-analysis of the deposited data

Results flagged for a closer look

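The highest or lowest library stood far from the other 3 of its group (its gap over the range of the group past the critical value of Dixon) in 11 of 322 groups of named genes, where chance flags about 1 in 20. DMSO replicate 4 was the high library for Ly6d (5.26 CPM), Anxa8 (1.73 CPM), Anxa10 (19.4 CPM) and Msln (49.7 CPM), and the low one for Ttr (13.0 CPM). DMSO replicate 3 was high for Foxa2 (26.3 CPM) and low for Mep1b (115 CPM). 4OHT replicate 4 was high for Yap1 (124 CPM) and Aqp3 (19.5 CPM) and low for Olfm4 (1331 CPM), and 4OHT replicate 3 was high for Pgc (0.812 CPM).

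For 31 named genes the effect of 4OHT differed between the days in edgeR's test of the difference (adjusted p below 0.05). Values are log2 effects at day 4 minus day 2. Higher at day 4 were defence and mucus genes: Reg3g (1.82), Ccl20 (1.72), Nox1 (1.45), Reg1 (0.86), Oas1a (0.54), Clca1 (0.84), Zg16 (0.80) and Mptx1 (1.48). So were the gasdermins Gsdmc4 (1.53) and Gsdmc2 (1.48), and Vsig1 (1.88), Capg (1.67), Pear1 (1.62), Sptssb (1.49), Fgf15 (1.40), Fut2 (0.80) and Zmat3 (0.41). Enzyme and brush border genes in this direction were Akr1b8 (0.99), Ces2a (0.88), Alpi (0.72), Mep1b (0.70), Gsta4 (0.67) and Cdhr5 (0.47). Lower at day 4 were Mycn (-1.09), Krt15 (-1.05), Fgfr4 (-1.04), Timp2 (-0.95), Rgs12 (-0.92), Cdk6 (-0.77), Pkp1 (-0.70) and Ccnd1 (-0.56).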

How the results depend on the processing

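Hnf4a stayed at log2 -1.06 to -1.02 in every alternative. With the replicate block 3651 genes were higher and 3565 lower, and 3815 and 3569 with both libraries numbered 4 left out as well. At an adjusted p below 0.01 the counts were 1295 and 893, and with a 1.5-fold minimum 901 and 365. The other scalings, filters, tools, thinning and single libraries left out moved neither count by over 1.5 times. For the difference between days, the replicate block gave 1170 higher and 680 lower effects, DESeq2 595 and 241, and an adjusted p below 0.01 gave 17 and 11. With single libraries left out these ranged from 66 to 502 and from 28 to 225. The causes were not tested.

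Of 142 named genes that passed, 135 kept their call with each library left out, and Cdkn1a, Clca3b, Gkn3, Lgr5, Mep1a, Naaladl1 and Sdha did not. The replicate block lost Naaladl1 and added 7 (Epcam, Vil1, Cdh17, Muc2, Mki67, Yap1 and Cdk6). Sign changes occurred in 6 genes that did not pass, all near 0 (log2). With single libraries left out, Itln1 ranged from -0.0906 to 0.00493, Chgb from -0.107 to 0.0356, Ccnd1 from -0.0206 to 0.0515, Apob from -7.42e-05 to 0.226, Apoa4 from -0.045 to 0.159 and Sis from -0.109 to 0.0912. With the block and without both libraries numbered 4, Sis was at 0.066. Thinning every library to the smallest total moved the counts little, to 2162 and 1694.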

Other observations

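Enteroendocrine hormone and goblet genes were often highest in the libraries numbered 1. In both groups replicate 1 was the highest library for 13 of 20 enteroendocrine hormone genes and for 15 of 23 goblet genes. The shares over all tested genes were 22.3% (DMSO) and 23.0% (4OHT). Alpha-defensin genes of Paneth cells did not share this: replicate 1 was highest for 3 of 15 in DMSO and 1 of 15 in 4OHT. What the replicate numbers stand for is not given in the labels. In 4OHT, replicate 4 was the highest library for all 12 annexins, and in DMSO replicate 4 was the highest for 9 of them.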
